A study of Mus musculus with 6 samples.

Results

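The NMDA receptor subunit genes Grin1, Grin2a, Grin2b, Grin2c, Grin2d, Grin3a and Grin3b were followed in bulk RNA sequencing of the mouse prefrontal cortex (PFC), in 6 libraries. They were chosen by name and make up 7 of the 54134 gene entries counted in every library. The sequenced animals were aged 6 to 8 weeks, and the labels describe the libraries of a group as biological duplicates. The wild-type group (WT, a C57BL/6 x C3H cross) received vehicle. The mutant vehicle group carried the Shank3 +/ΔC genotype, a heterozygous truncation of the postsynaptic scaffold SHANK3, and also received vehicle. The treated mutant group had the same Shank3 +/ΔC genotype and received GSK-LSD1, an inhibitor of the histone demethylase LSD1 encoded by Kdm1a. Each group had 2 libraries, no treated wild-type mice are analysed here, and strain is named for the wild type only. The sources used here give no dose, treatment length or sex.

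NMDA receptors are glutamate-gated cation channels that let calcium into the postsynaptic neuron. Each is a tetramer with an obligatory GluN1 subunit (Grin1), which binds glycine or D-serine, and GluN2 subunits (Grin2a to Grin2d), which bind glutamate and set opening and deactivation kinetics. GluN3 subunits (Grin3a, Grin3b) bind glycine and lower calcium permeability. In forebrain, GluN2B predominates early and GluN2A increases as the cortex matures, GluN2C is best known from cerebellum and glia, and GluN2D from interneurons and early development. SHANK3 lies in the postsynaptic density, where it is joined to NMDA receptors through PSD-95 and SAPAP proteins.

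The proximal promoters of Grin1, which had a lower mean in both mutant groups than in wild type, and of Grin2c, which had a higher one, are shown as an example of each direction of the means. In the tests given below (adjusted p under 0.05) Grin2c passed in neither comparison with wild type, and Grin1 only in treated mutants. The RefSeq table used (build GRCm38.p6) held start sites for 4 of the 7 genes, Grin1, Grin2c, Grin2d and Grin3b. Each line gives the 250 bases before the annotated start in the direction of transcription, on the minus strand of chr2:25319188-25319437 for Grin1 and of chr11:115267244-115267493 for Grin2c. Capitals mark matches, on either strand, to CACGTG, the E-box, or to GGGCGG, the GC box, and each of several overlapping matches was counted.
Grin1 promoter: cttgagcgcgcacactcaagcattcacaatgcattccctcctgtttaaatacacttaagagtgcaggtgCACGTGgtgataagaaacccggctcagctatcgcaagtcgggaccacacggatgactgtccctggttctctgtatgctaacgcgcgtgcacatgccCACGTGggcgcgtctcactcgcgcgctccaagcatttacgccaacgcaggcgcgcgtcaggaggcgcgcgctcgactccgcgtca
Grin2c promoter: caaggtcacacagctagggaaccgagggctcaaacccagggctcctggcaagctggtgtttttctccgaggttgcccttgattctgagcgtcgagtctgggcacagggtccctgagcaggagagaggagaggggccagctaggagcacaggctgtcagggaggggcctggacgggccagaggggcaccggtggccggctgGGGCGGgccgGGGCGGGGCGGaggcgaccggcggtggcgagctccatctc
The Grin1 window held 2 E-boxes, which begin 181 and 85 bases before the start, and no GC box. The Grin2c window held no E-box and 3 GC boxes, which begin 50, 40 and 35 bases before the start, the last 2 of them overlapping. The windows of Grin2d and Grin3b held neither motif, and none of the 4 windows held TGCGCA, the core of the NRF1 motif. Of 32851 RefSeq windows of the same length, 6.02% held CACGTG, 32.7% held the GC box and 6.43% held TGCGCA. G and C made up 58.8% of the Grin1 window and 68.8% of the Grin2c window. These matches describe letters in a window and are not evidence of binding.

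Libraries held 14133834 to 28646960 counted reads, and 3 counts, taken as the floor of detection, corresponded to 0.105 to 0.212 CPM (counts scaled by library size), which covers counting error only. Shank3 itself, counted over the whole gene, had 156 ± 4.90, 160 ± 20.2 and 153 ± 7.53 CPM (SD, n = 2) in wild-type, mutant vehicle and treated mutant libraries. A whole-gene count cannot check a truncated allele. Kdm1a, the target of the inhibitor, passed no test, with means of 97.4, 91.6 and 92.5 CPM in the same order. Excitatory cortical markers such as Slc17a7 and Neurod6 were detected in every library. Of 5 cerebellar granule cell markers, Gabra6 had 0 to 5 counts and Barhl1 0 to 2. The other 3 had enough counts to be tested, Cbln1 with 114 to 210, Fat2 with 12 to 47 and Cbln3 with 6 to 12.

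Grin2b, Grin2a and Grin1 were the most abundant members in every group. Levels were compared between genes as CPM per kilobase (kb) of exons, since a longer transcript gathers more reads. In wild type Grin2b came first with 66.2 ± 11.8 CPM per kb (SD, n = 2), followed by Grin2a with 35.7 ± 2.07 and Grin1 with 30.4 ± 2.56. Grin3a had 9.26 ± 0.794, Grin2c 5.66 ± 1.02, Grin2d 1.38 ± 0.205 and Grin3b 0.0426 CPM per kb. The order was the same in the mutant vehicle group except that Grin2c, at 6.99 ± 0.580, had a mean above that of Grin3a, at 6.67 ± 0.541, by less than the spread between libraries. In treated mutants Grin3a, at 7.04 ± 0.267, and Grin2c, at 6.90 ± 0.902, again lay within that spread. The place of Grin1 rests on the length used: by the longest annotated transcript it came first in wild type, at 69.0 ± 5.81 against 68.4 ± 12.2 CPM per kb for Grin2b, and by coding length it came after Grin2b and Grin2a.

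**Figure D1:**
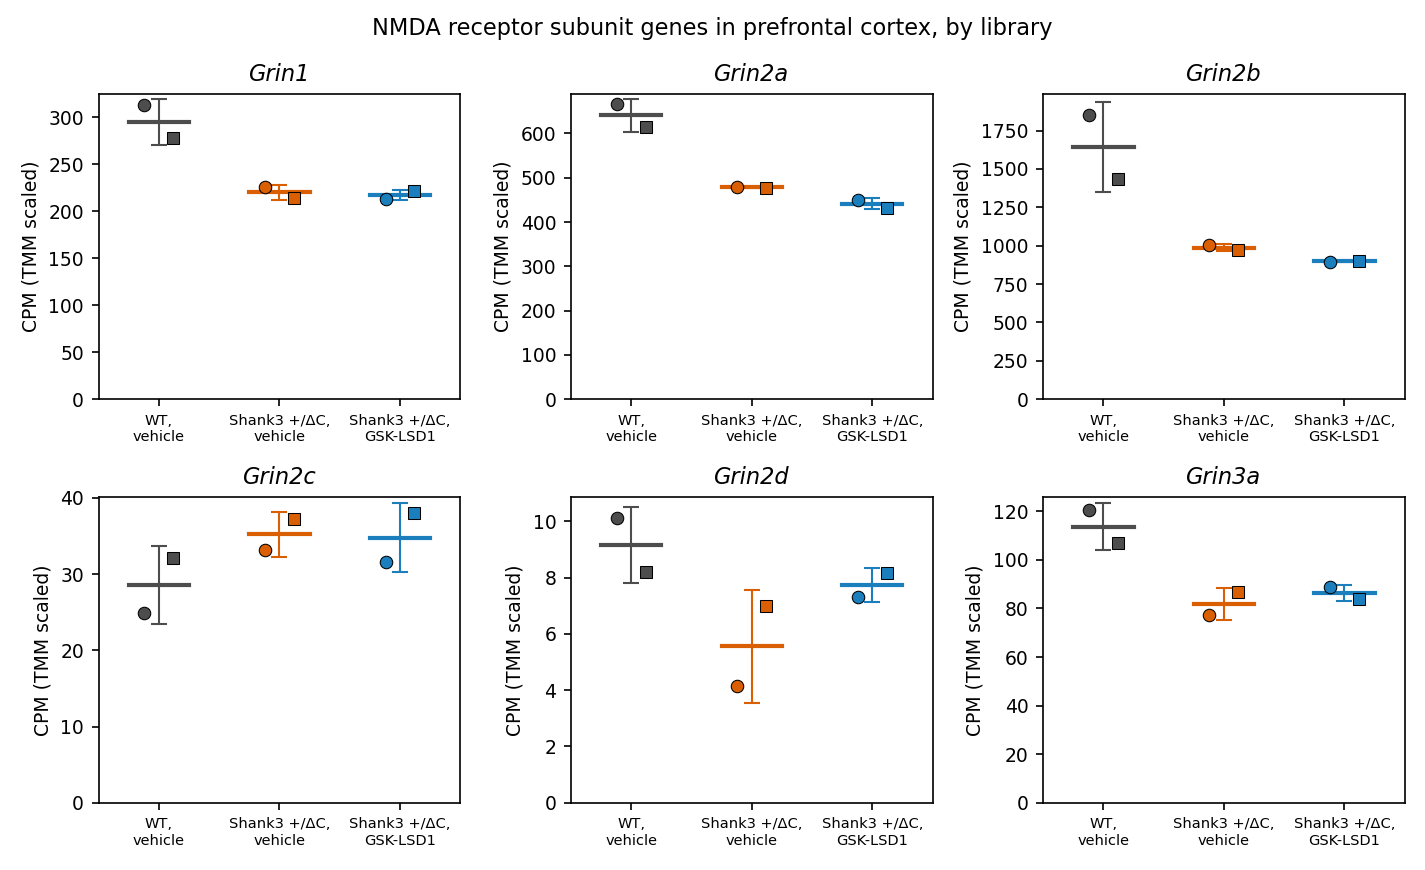
Level of each tested subunit gene in every library, in TMM-scaled CPM (vertical axis from 0), by group. Circles are replicate 1, squares replicate 2, thick bars the mean and thin bars the SD of 2 libraries. Grin2b lay at 1853 and 1437 CPM in wild type and between 897 and 1003 CPM in the 4 mutant libraries, while Grin2c had its lowest value, 24.9 CPM, in a wild-type library.

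Grin1, the gene of the obligatory subunit, lies on chr2:25291181-25319187 (GRCm38, minus strand) and has 9.70 kb of exonic sequence. It had 313 and 278 CPM in wild type, 226 and 214 in mutant vehicle libraries, and 214 and 221 in treated mutants. Both wild-type libraries were above all 4 mutant libraries, and the mutant groups overlapped. The long noncoding gene Grin1os overlaps 1307 bases of its exons on the other strand and had 5 to 24 counts against 3254 to 7693 for Grin1. The strand setting of the counting is not given, so reads over these bases are uncertain.

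Grin2b encodes GluN2B, the subunit that holds CaMKII at the synapse. The gene lies on chr6:135713233-136173511 (minus strand) and, with 24.8 kb of exons, is longer than 99.8% of the tested genes with an annotated length. Its level was 1853 and 1437 CPM in wild type, 1003 and 972 in mutant vehicle libraries, and 897 and 902 in treated mutants. The 3 groups did not overlap, and the wild-type libraries differed from each other (SD 294 CPM) far more than those of either mutant group (SD 22.2 and 3.56 CPM).

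Grin2a encodes GluN2A, which gives receptors faster deactivation, and lies on chr16:9567898-9995560 (minus strand, 17.9 kb of exons). It had 667 and 614 CPM in wild type, 478 and 477 in mutant vehicle libraries, and 450.2 and 433 in treated mutants. As with Grin2b, each group lay below the one before it without overlap, but the steps were smaller.

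Grin2c (chr11:115249169-115267243, minus strand, 5.04 kb of exons) encodes GluN2C and had 24.9 and 32.2 CPM in wild type, 33.1 and 37.3 in mutant vehicle libraries, and 31.5 and 38.0 in treated mutants. Its mutant vehicle libraries were both above wild type, and the treated mutants overlapped with both other groups. Grin2d (chr7:45831883-45878378, minus strand, 6.66 kb of exons) encodes GluN2D and had 10.1 and 8.19 CPM in wild type, 4.13 and 6.98 in mutant vehicle libraries, and 7.33 and 8.17 in treated mutants. Its counts were 90 to 227 per library, and the gene Gm45441 on the opposite strand overlaps 643 bases of its exons with 37 to 99 counts. The libraries were stranded, but whether the counting used strand is not stated in the sources at hand, so the Grin2d values are uncertain.

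Grin3a, the more abundant of the GluN3 genes, lies on chr4:49661611-49845744 (minus strand, 12.3 kb of exons). It had 121 and 107 CPM in wild type, 77.2 and 86.6 in mutant vehicle libraries, and 88.7 and 84.0 in treated mutants. Wild type was above all 4 mutant libraries, which overlapped. Grin3b (chr10:79970715-79977190, plus strand, 3.30 kb of exons) had 2 to 4 counts per library, at or about the floor, and was not tested. It also shares 1059 exonic bases with Tmem259 on the other strand.

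Mutant vehicle libraries were first set against wild type, which addresses the mutation under vehicle, and Grin2b and Grin3a were lower. Grin2b fell by 0.74 ± 0.13 on the log2 scale (SE, adjusted p = 0.0178), which is 39.9% lower than in wild type with a 95% interval from 50.1% to 27.7% lower. Grin3a fell by 0.47 ± 0.11 (interval -0.70 to -0.24, adjusted p = 0.0415), or 27.9%. These adjusted p-values come from edgeR's quasi-likelihood test over 18705 genes with a threshold of 0.05. They rest on the spread between 2 libraries in each of the 3 groups, including the group not compared, partly shared between genes. In bulk tissue, fewer cells of a type and less RNA per cell cannot be told apart.

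Grin1 and Grin2a did not pass, with means 25.4% below wild type for both (-0.42 ± 0.11 for each, edgeR adjusted p = 0.0588 and 0.0610). Grin2d had the second largest log2 difference with the widest interval (-0.71 ± 0.24, interval -1.21 to -0.21, edgeR adjusted p = 0.168), which became -0.39 without mutant vehicle replicate 1 and -1.14 without replicate 2. With no filter on low counts beyond 1 read Grin2d passed (-0.72, edgeR adjusted p = 0.046). Grin2c differed in the other direction, by 0.29 ± 0.14 (edgeR adjusted p = 0.360), with an interval from -0.00202 to 0.59. It was 0.13 without wild-type replicate 1 and 0.50 without replicate 2. Thus 2 of the 6 tested members passed as lower and 0 as higher, where 0.994% of all tested genes passed as lower, 0.278% as higher and 1.27% in either direction. The median log2 difference of the 6 members was -0.45, against 0.02 over all tested genes.

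In this comparison 5 members were lower and 1, Grin2c, higher without overlap of the libraries, where 23.1% of tested genes were lower and 23.1% higher without overlap. The calls depended on single libraries. Without wild-type replicate 1 the Grin2b difference was -0.55 (edgeR adjusted p = 0.445), without mutant vehicle replicate 1 it was -0.77 (0.0871) and without mutant vehicle replicate 2 it was -0.71 (0.122), and 0 members passed in each case. Without either treated library 4 members passed (Grin1, Grin2a, Grin2b and Grin3a), and the direction of all 6 members was the same throughout.

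**Figure D2:**
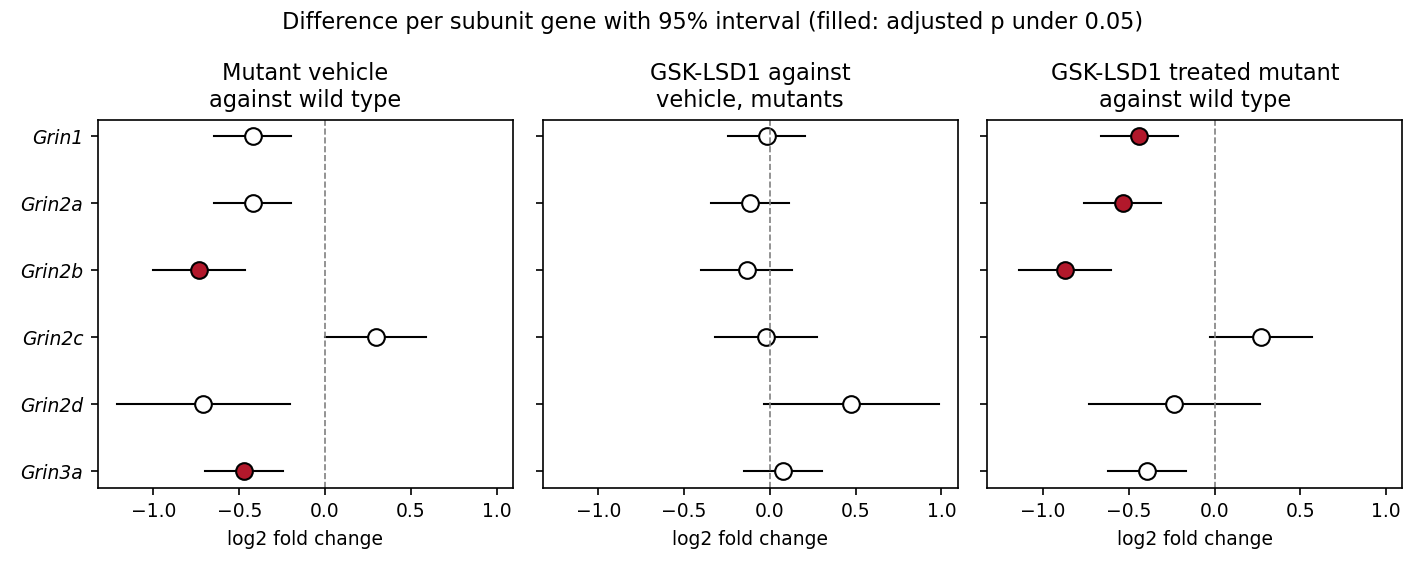
Log2 fold change (horizontal axis) of each tested subunit gene in 3 comparisons of 2 groups with 2 libraries each. Points are edgeR estimates, lines 95% intervals, and filled points have an adjusted p under 0.05. Grin2b and Grin3a are filled at the left, none in the middle, and Grin1, Grin2a and Grin2b at the right.

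GSK-LSD1 treatment of the mutants was the second comparison, which asks whether the inhibitor shifts expression in mutant cortex. None of the 6 tested members passed, and with edgeR 0 had an unadjusted p under 0.05; DESeq2 and limma-voom also called 0. Over all tested genes 0.102% passed as higher, 0.00535% as lower and 0.107% in either direction. The differences were -0.02 ± 0.11 for Grin1, -0.11 ± 0.11 for Grin2a, -0.13 ± 0.13 for Grin2b, -0.02 ± 0.14 for Grin2c and 0.08 ± 0.11 for Grin3a (log2 ± SE). Their intervals, with a spread estimated over all 3 groups including wild type, state what these libraries leave possible. That of Grin2b ran from 24.2% lower to 9.53% higher, that of Grin1 from 15.4% lower to 15.3% higher, and that of Grin3a from 9.90% lower to 23.6% higher than in mutants given vehicle.

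Grin2d had the largest difference with treatment, 0.47 ± 0.24 (interval -0.04 to 0.98, edgeR adjusted p = 0.918). It was 0.15 without mutant vehicle replicate 1 and 0.90 without replicate 2 (edgeR adjusted p = 0.988 and 0.686). Its treated libraries were both above the vehicle libraries, while those of Grin2a and Grin2b were both below, where 17.0% of tested genes were higher and 16.6% lower without overlap. The other 3 members overlapped. The median log2 difference was -0.02, against -0.000714 over all tested genes.

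Treated mutants were also set against wild type, a comparison that shares its libraries with the other 2 and is not independent of them. Grin2b fell by 0.87 ± 0.13 (interval -1.14 to -0.60, edgeR adjusted p = 0.00458), which is 45.3% lower. Grin2a fell by 0.54 ± 0.11 (edgeR adjusted p = 0.0147), or 31.1%, and Grin1 by 0.44 ± 0.11 (edgeR adjusted p = 0.0344), or 26.3%. Grin3a, at -0.39 ± 0.11 (edgeR adjusted p = 0.0611), Grin2c, at 0.27 ± 0.14 (0.376), and Grin2d, at -0.24 ± 0.24 (0.704), did not pass. Without wild-type replicate 1 or 2, Grin2c was at 0.10 or 0.47 and Grin2d at -0.09 or -0.39, and without treated replicate 2 Grin2c was at 0.14. So 3 of 6 passed as lower and 0 as higher, where 1.99% of tested genes passed as lower, 0.636% as higher and 2.62% in either direction. The median log2 difference was -0.42, against 0.02 over all tested genes.

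In that comparison 5 members were lower without overlap and Grin2c overlapped, where 22.4% of tested genes were lower and 23.5% higher without overlap. Without wild-type replicate 1, 0 members passed (Grin2b -0.68, edgeR adjusted p = 0.105), and without treated replicate 2 only Grin2b did (-0.87, edgeR adjusted p = 0.00810). Grin1 lost its call also without mutant vehicle replicate 1 (edgeR adjusted p = 0.0592) and without treated replicate 1 (0.0811), which left 2 members. With an offset for exonic length and GC content only Grin2b passed, at -0.67 (edgeR adjusted p = 0.0128). The other comparison with wild type moved alike under that offset, with Grin2b at -0.59 (edgeR adjusted p = 0.0419) as the only member called.

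**Figure D3:**
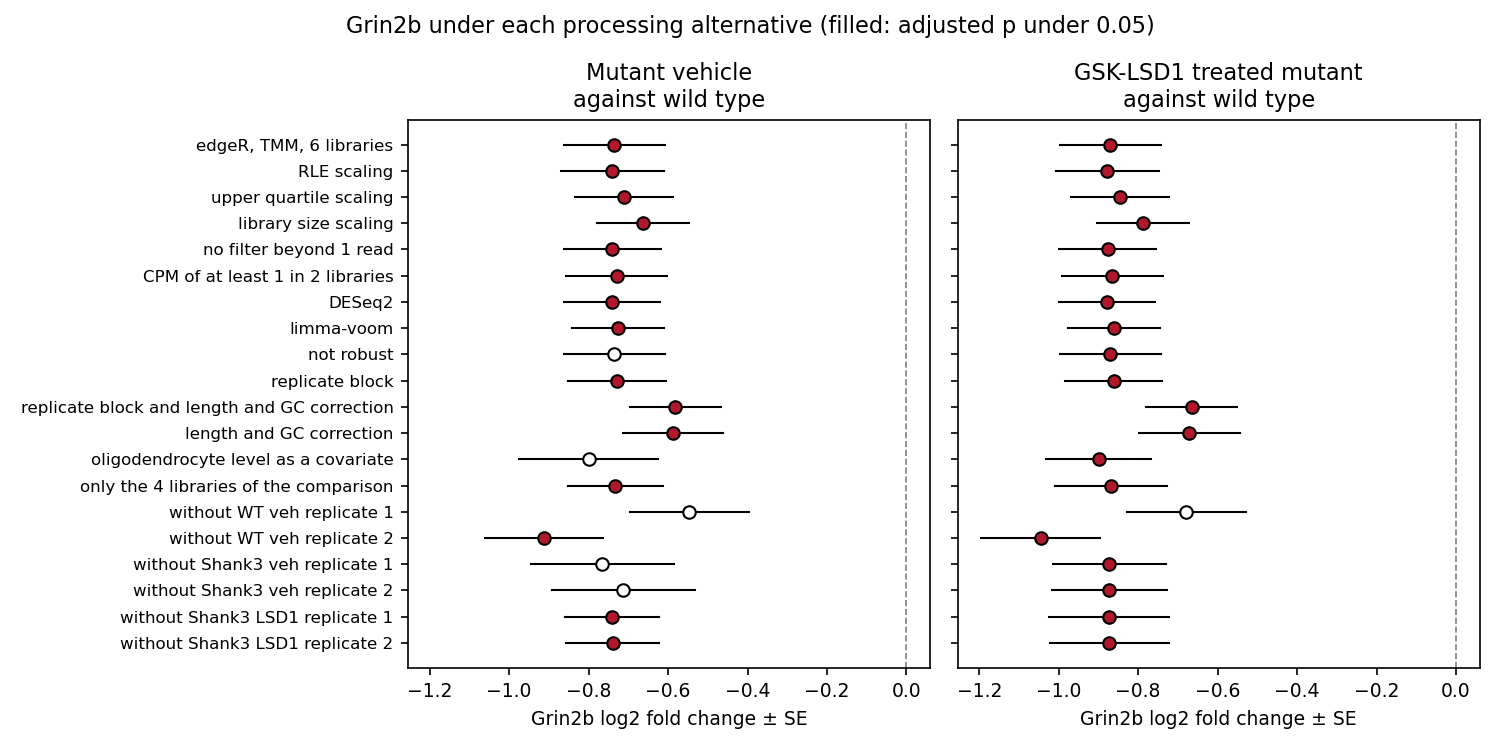
Grin2b log2 fold change ± SE (horizontal axis) under the edgeR fit and 19 alternatives (vertical axis) for mutant vehicle (left) and GSK-LSD1 treated mutants (right), each against wild type. Filled points have an adjusted p under 0.05. All estimates were negative, from -0.91 to -0.55 on the left with 14 alternatives called, and from -1.05 to -0.67 on the right with 18 called.

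The make-up of the subunit pool was described next, per kb and within each library, where the scaling between libraries cancels. Grin2b took 46.5% and 42.2% of the summed per-kb level in wild type, 38.9% and 37.8% in mutant vehicle libraries, and 36.9% and 36.7% in treated mutants. Both mutant groups were thus below wild type in this share. Grin2c took 3.08% and 4.66% in wild type, 6.33% and 7.16% in mutant vehicle libraries, and 6.40% and 7.62% in treated mutants, above wild type in each mutant library. The mean shares of Grin2a were 24.1%, 25.7% and 25.0% in the same order of groups, and those of Grin1 20.5%, 21.9% and 22.8%. Shares sum to a fixed total, so a lower share of Grin2b raises the sum of the other shares by construction. Not each of them was higher, since Grin2d took 0.923% on average in wild type and 0.805% in mutant vehicle libraries.

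The ratio of Grin2b to Grin2a, the pair whose balance shifts as cortex matures, was 2.01 and 1.69 in wild type, 1.51 and 1.47 in mutant vehicle libraries, and 1.44 and 1.51 in treated mutants (per kb). On the log2 scale the mutant vehicle group was lower than wild type by -0.30, with no overlap and an exact two-sided permutation p of 0.333, the smallest that 2 against 2 libraries can give. For treated mutants against wild type it was -0.32 (exact p = 0.333), and between the mutant groups -0.02 with overlap (exact p = 0.667). The ratio of Grin2b to Grin1 ran in the same order, with 2.31 and 2.02, then 1.73 and 1.77, then 1.64 and 1.59. Grin2b to Grin2c went from 15.1 and 9.06 in wild type to 6.14 and 5.29 in mutant vehicle libraries. By contrast, Grin2a to Grin1 was 1.153 and 1.196 in wild type and 1.145 and 1.204 in mutant vehicle libraries (log2 difference -0.000558, exact p = 1). In treated mutants it was 1.140 and 1.057, below both other groups without overlap. The log2 difference was -0.0976 from wild type and -0.0971 from mutant vehicle (exact p = 0.333 for each).

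**Figure D4:**
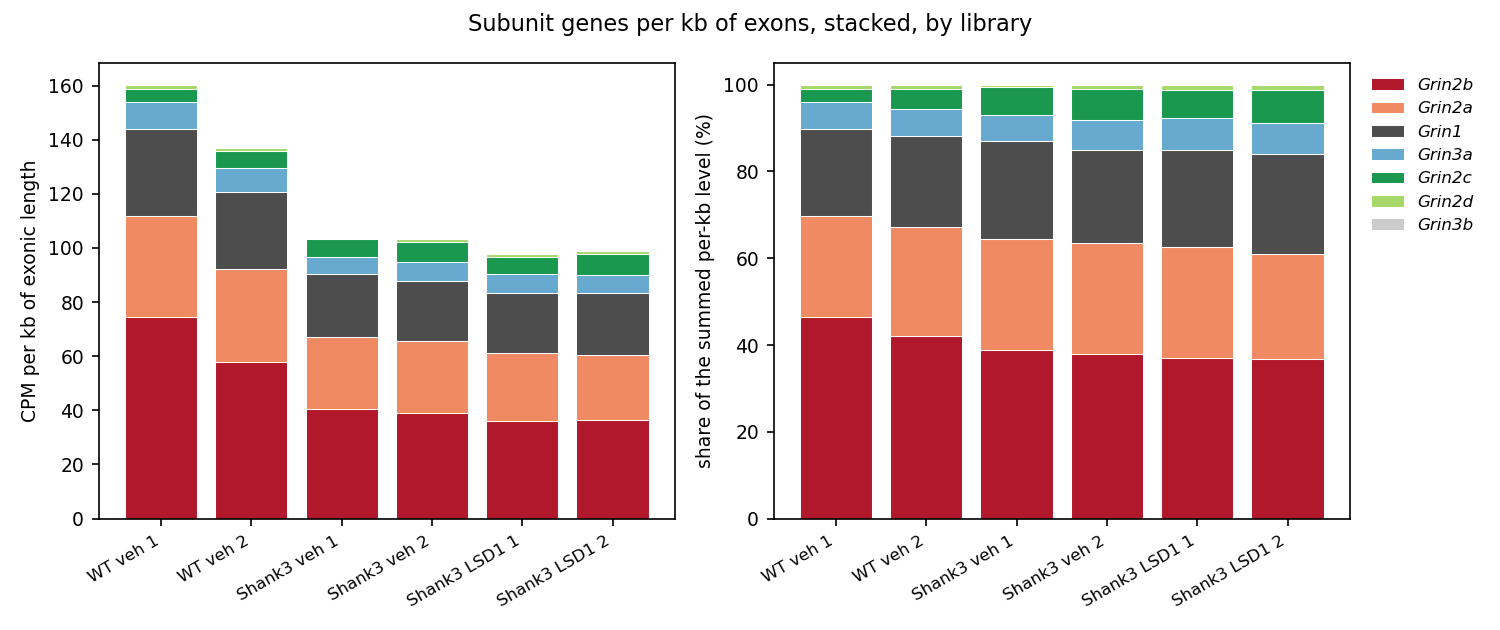
Subunit genes stacked by library, as CPM per kb of exonic length (left) and as percent of the summed per-kb level (right). The summed level was 160.3 and 137 in wild type and between 97.9 and 104 in the 4 mutant libraries, and the Grin2b band took 42.2% or more in wild type and 38.9% or less in the mutants.

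The summed per-kb level of all 7 genes was 148.7 ± 16.5 in wild type, 104 ± 0.373 in mutant vehicle libraries and 98.4 ± 0.772 in treated mutants (SD, n = 2). Across the 6 libraries, and as a description only because the groups are part of the spread, log2 CPM of Grin2b had a Pearson r of 0.989 with Grin1, 0.987 with Grin2a, 0.921 with Grin3a, 0.529 with Grin2d and -0.821 with Grin2c. Grin1, Grin2a, Grin2b, Grin2d and Grin3a had both wild-type libraries above all mutant ones, Grin2d narrowly (8.192 against at most 8.166 CPM). Of all tested genes, 23.1% were lower without overlap in mutant vehicle libraries and 22.4% in treated mutants, each against wild type. The share that was lower in both at once was not counted. Within the 4 mutant libraries the order differed between genes, with mutant vehicle replicate 1 the highest for Grin1 and the lowest for Grin3a.

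Of 9415 genes with a mean of at least 10 CPM, those closest to Grin2b over the 6 libraries were Mapre2 (r = 0.998), Eif4enif1 (0.997), Phlpp2 (0.997), Gramd1b (0.997) and Atp8a2 (0.997). Mapre2, which encodes a microtubule end-binding protein, had 269 and 232 CPM in wild type, 189 and 191 in mutant vehicle libraries, and 180.2 and 179 in treated mutants. Closest to the mean of the 6 tested members were Cblb (0.996), Zbtb7a (0.995), Hdac9 (0.993), Extl3 (0.990) and Numa1 (0.990). These values were chosen as the highest of many over 6 libraries and carry no test.

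Partner genes and cell type markers were described by lists. For comparison, 0.994% of all tested genes passed as lower and 0.278% as higher in mutant vehicle against wild type. In treated mutants against wild type 1.99% passed as lower and 0.636% as higher. The median log2 difference of all tested genes was 0.02 in both. From the partner, excitatory neuron, pan-neuronal and astrocyte lists came 21 calls of single genes in both comparisons with wild type. All 21 were lost without wild-type replicate 1 (edgeR adjusted p from 0.0972 to 0.586), while the direction of each was the same in every alternative run. Of the 8 calls in mutant vehicle libraries 7 were lost without mutant vehicle replicate 1 (all but Nos1ap), 8 without replicate 2 and 1 without wild-type replicate 2 (Aqp4). Of the 13 in treated mutants 9 were lost without treated replicate 2 (edgeR adjusted p up to 0.247), and 2 or 3 without each of the other 4 libraries, Nrgn and Syt1 most often.

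Genes for proteins that hold and move the receptor mostly had lower means than in wild type without passing. Of 19 postsynaptic scaffold and trafficking genes 0 passed in mutant vehicle against wild type. Their median log2 difference was -0.18, against 0.02 over all tested genes, and 17 of the 19 were negative. In treated mutants 1 passed against wild type: Neto1, an auxiliary protein of NMDA and kainate receptors, had 81.7 and 78.3 CPM in wild type and 57.8 and 52.7 in treated mutants (-0.53 ± 0.11, edgeR adjusted p = 0.0173). The mutant vehicle libraries lay between these, at 67.4 and 57.7 CPM (-0.35 ± 0.11, edgeR adjusted p = 0.127). Shank1, a relative of Shank3, had 345 and 241, 211 and 233, and 158 and 201 CPM in the 3 groups, and did not pass. With treatment in mutants 0 of the 19 passed.

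Among 20 kinases and phosphatases of the receptor, 1 passed as lower in mutant vehicle libraries and 0 in treated mutants, each against wild type. Ptpn5, the phosphatase STEP that removes phosphate from GluN2B, was at 134 and 123 CPM in wild type and 89.2 and 102 in mutant vehicle libraries (-0.42 ± 0.12, edgeR adjusted p = 0.0793). The median of the 20 genes was -0.13 in mutant vehicle and -0.15 in treated libraries, each against wild type, and 0 passed with treatment in mutants.

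Of 16 genes for effectors of receptor calcium 3 passed as lower in mutant vehicle against wild type, where 0.994% of all tested genes did. The median of the 16 was -0.30, against 0.02 over all tested genes. Nos1, the neuronal nitric oxide synthase tethered to the receptor by PSD-95, had 90.1 and 66.0 CPM in wild type, 46.9 and 49.6 in mutant vehicle libraries and 48.1 and 52.3 in treated mutants. Its difference was -0.69 ± 0.13 in mutant vehicle (edgeR adjusted p = 0.0247) and -0.63 ± 0.13 in treated mutants (0.0181). Nos1ap, an adaptor of that synthase, fell by 0.64 ± 0.13 (edgeR adjusted p = 0.0337) and by 0.78 ± 0.13 (0.00919). In Nos1 and Nos1ap, as in Grin2b, wild-type replicate 1 was the highest library. With treatment in mutants 0 of the 16 passed, and the median was -0.02.

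Of 13 tested genes that supply the co-agonists glycine and D-serine (Dao and Slc6a5 were below the filter), 1 rose in mutant vehicle libraries. The log2 difference was positive in 11 of the 13, with a median of 0.35, and in treated mutants against wild type it was positive in 9 of the 13, with a median of 0.27. The gene that passed was Psat1, a step of serine synthesis, with 79.5 and 97.9 CPM in wild type and 126 and 126 in mutant vehicle libraries (0.50 ± 0.12, edgeR adjusted p = 0.0453). In treated mutants against wild type Gldc, of the glycine cleavage system, passed, with 19.4 and 26.2 CPM in wild type and 36.2 and 42.9 in treated libraries (0.78 ± 0.16, edgeR adjusted p = 0.0191), and Psat1 did not (0.31 ± 0.12, edgeR adjusted p = 0.196). Gldc had 30.3 and 38.6 CPM in mutant vehicle libraries (0.58 ± 0.16 against wild type, edgeR adjusted p = 0.0893), and neither gene passed between the mutant groups. Slc1a4, a neutral amino acid transporter that carries serine, had 97.4 and 98.5 CPM in wild type, 76.8 and 78.3 in mutant vehicle libraries and 90.5 and 89.2 in treated mutants, without passing (-0.34 ± 0.10 in mutant vehicle, edgeR adjusted p = 0.108). Astrocyte markers, listed further on, also had higher levels in the mutant groups, and their part in the result was not tested.

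Of 19 transcription and chromatin regulators known for acting on Grin genes, 0 passed in mutant vehicle libraries or with treatment in mutants, and 1 passed in treated mutants against wild type. Tbr1, a cortical transcription factor that is also one of the excitatory neuron markers, went from 146 and 132 CPM in wild type to 129 and 101 in mutant vehicle and 102 and 88.9 in treated libraries (-0.54 ± 0.12 in treated mutants against wild type, edgeR adjusted p = 0.0260). Rest, the repressor of neuronal genes, had 4.99 and 6.53 CPM in wild type, 7.80 and 9.65 in mutant vehicle libraries and 7.96 and 9.94 in treated mutants, without passing (0.58 ± 0.22 in mutant vehicle, edgeR adjusted p = 0.216).

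Cell type markers also differed between the groups. Summed over 8 excitatory neuron markers, the level was 2927 and 2608 CPM in wild type, 2299 and 2076 in mutant vehicle libraries, and 2196 and 1868 in treated mutants. Most of that sum was Slc17a7, with 1921 and 1672, 1421 and 1275, and 1433 and 1155 CPM in the 3 groups. Against wild type, 6 of the 8 log2 differences were negative and 2 positive in mutant vehicle libraries, Neurod6 (0.06) and Slc17a6 (0.57). In treated mutants 7 were negative and 1 positive, Slc17a6 (0.60). Of the 8 markers, 1 passed as lower in mutant vehicle libraries and 3, Nrgn and Tbr1 among them, in treated mutants against wild type. The list's median was -0.28 in mutant vehicle and -0.37 in treated mutants, each against wild type. The median of the 6 tested Grin members was -0.45 and -0.42 in the same comparisons, and Grin2b, the most changed member, was at -0.74 and -0.87. Slc17a7 was at -0.41 and -0.47 without passing. Of 9 inhibitory neuron markers 0 passed in any comparison, and their sum ran from 498 to 587 CPM. The 7 pan-neuronal markers had a median of -0.00976 in mutant vehicle libraries, where 0 passed, and of -0.18 in treated mutants against wild type, where Syt1 alone passed as lower.

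Of the 9 astrocyte markers Gja1 and Aqp4 rose in mutant vehicle libraries, and the sum was 3880 and 4779 CPM in wild type, 5285 and 5464 in mutant vehicle libraries and 5278 and 5328 in treated mutants. Most of that sum was Slc1a2, with 2669 and 3206 CPM in wild type, which did not pass. The log2 difference was positive in 8 of the 9 in each comparison with wild type, and Sox9 was at -0.10 in mutant vehicle and -4.3e-06 in treated mutants. In treated mutants against wild type 4 of the 9 rose. The median over the list was 0.37 in mutant vehicle and 0.47 in treated mutants, each against wild type. Grin2c also had its lowest mean in wild type, and the part of these markers in its values was not tested. Summed over 9 oligodendrocyte markers the level was 2566 and 2366 CPM in wild type, 5951 and 6004 in mutant vehicle libraries, and 2406 and 5651 in treated mutants, and 0 passed in any comparison. Treated replicate 1 was as low in these markers as wild type. With the oligodendrocyte level as a covariate the Grin2b difference was -0.80 in mutant vehicle libraries (edgeR adjusted p = 0.0598) and -0.90 in treated mutants against wild type (0.00138). The covariate was low in both wild-type libraries (-0.42 and -0.66) and high in both mutant vehicle libraries (0.56 and 0.57). It can thus hardly be separated from the group in that comparison, and the part of oligodendrocyte content was not tested. Of 6 oligodendrocyte precursor, 7 microglial and 7 endothelial markers, 1 each passed as higher in mutant vehicle against wild type (Gpr17, Itgam and Itm2a). Of all tested genes 0.278% did. The log2 difference was positive in 6, 7 and 5 genes of these lists, with medians of 0.58, 0.22 and 0.29. The endothelial markers Cldn5 and Cdh5 were at -0.05 and -0.04, and Itgam had only 31 to 137 counts per library. Of 10 markers of hypothalamus, septum and preoptic area 5 were tested, and Hap1, Baiap3 and Prph rose with treatment in mutants. The list was chosen with earlier results of these data known, so these rises do not test for tissue of those regions. Its summed level was 285 and 345 CPM in treated libraries against 120.4 to 149 in the other 4. Most of that sum was Hap1, with 218 and 232 CPM in treated libraries and 89.0 to 125 in the other 4. Trh did not pass with treatment (0.54, edgeR adjusted p = 0.988). No Grin member passed in that comparison. Zic1 did not pass, with 49.2 CPM in treated replicate 2, 24.7 in mutant vehicle replicate 2 and at most 14.9 in the other libraries. Of the untested genes Isl1 had 33 counts in treated replicate 2 and at most 2 elsewhere, and Nkx2-1, Gal, Oxt and Avp had at most 9 counts in any library. No listed marker of the neuronal and glial lists was at 0 in all libraries. The part of excitatory neuron, astrocyte and other cell content in the Grin differences was not tested.

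**Figure D5:**
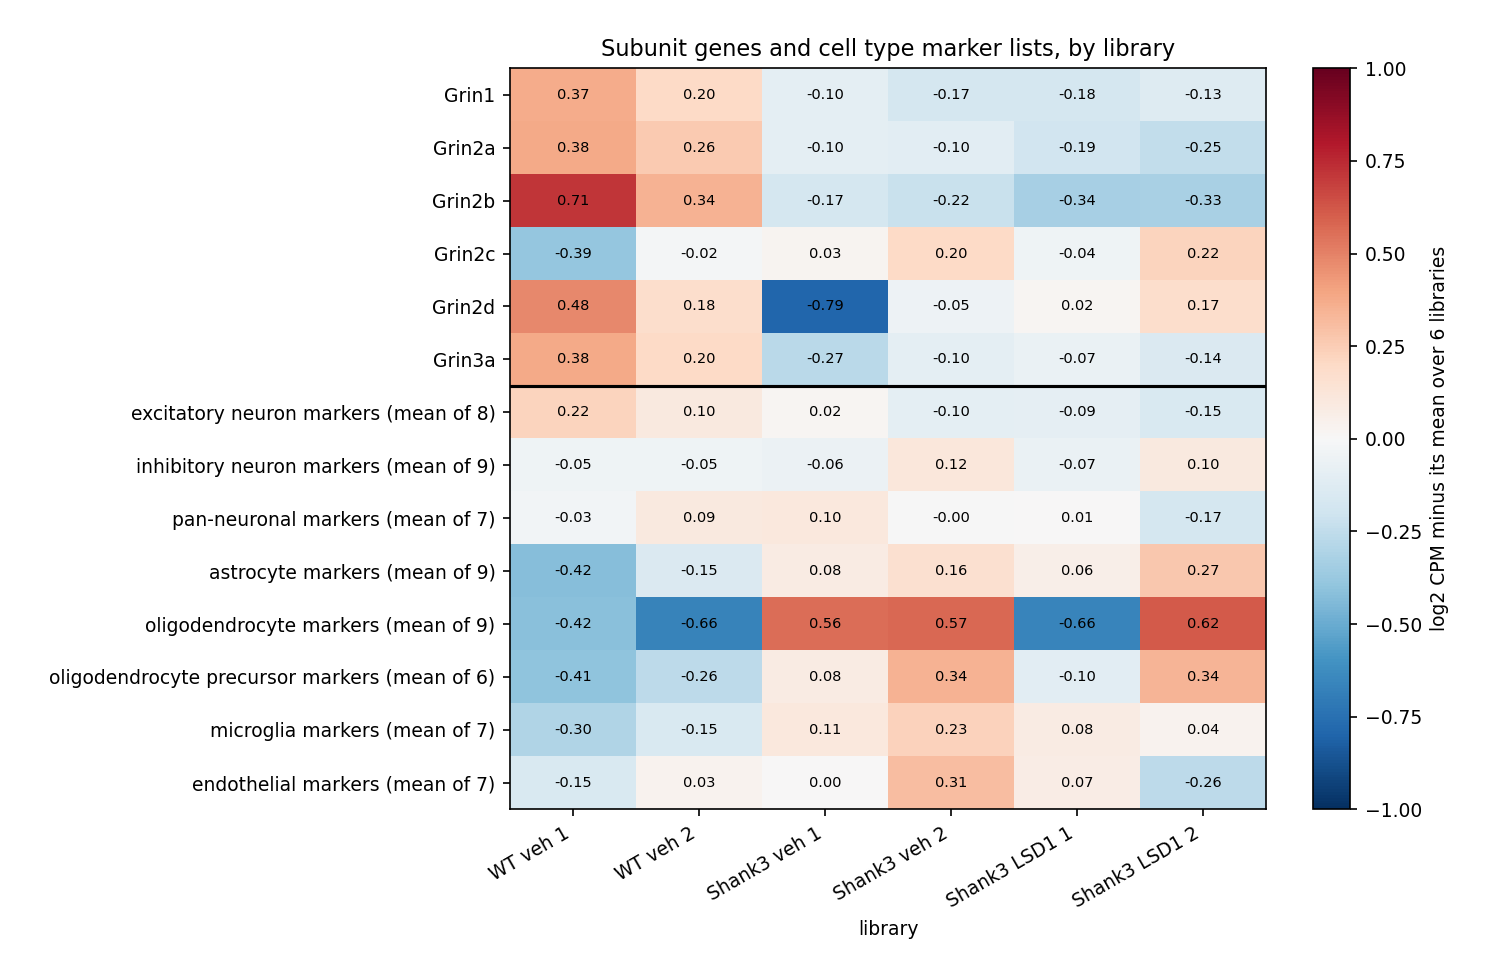
Each tested subunit gene (above the line) and the mean of each marker list (below it) in the 6 libraries, as log2 CPM minus its mean over the libraries (colour scale from -1 to 1). Grin2b ran from 0.71 in wild-type replicate 1 to -0.34 in treated replicate 1, excitatory neuron markers from 0.22 to -0.15, and oligodendrocyte markers from -0.66 to 0.62.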

How the data were processed

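Total RNA of PFC tissue was depleted of ribosomal RNA and sequenced as stranded libraries, per the labels' protocols. The authors deposited unnormalised read counts for each gene symbol. Per the submitters' processing notes the authors used cutadapt, TopHat2, SAMtools, featureCounts and edgeR with mm10 (GRCm38). The sources used here give no versions, annotation release or strand setting.

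Counts were fitted with edgeR 4.0.16 in R 4.3.3 (filterByExpr, TMM scaling, robust quasi-likelihood, 3 groups on 6 libraries, 3 residual degrees of freedom), with two-sided tests and Benjamini-Hochberg adjustment over 18705 genes. The biological coefficient of variation was 11.5%. Chi-square over degrees of freedom between libraries of 1 group was 9.94 to 13.3, so none was a repeat. The script was tested on simulated counts. SE is the absolute log2 fold change over the square root of F. Alternatives used DESeq2 1.42.0, limma 3.58.1, other scalings, filters and covariates, and left out each library. Exonic lengths, coordinates and GC content come from GENCODE M21 (GRCm38), matched for 98.7% of tested genes, and promoters from RefSeq.

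The members, partner lists and markers were chosen with earlier results of these data known. All 7 members are named, with at most 4 genes per partner list and comparison, those of smallest p, and the 5 genes of highest r, without Gm, Rik and date symbols. Markers are named where they passed or define a cell type. Some genes of these lists are counted but not reported here by name. Replicate numbers were not treated as pairing the libraries, and the sources used here do not say whether they do.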

Additional observations from a re-analysis of the deposited data

How the results depend on the processing

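In mutant vehicle against wild type, 2 members and 238 genes passed. Members passing were 4 at an adjusted p under 0.10, with DESeq2 and with only the 4 libraries compared, 5 with no filter beyond 1 read, 1 with upper quartile scaling, library size scaling, limma-voom, and the length and GC correction, and 0 without the robust option and with the oligodendrocyte covariate. All genes passing in that comparison numbered 552 at 0.10, 141 with upper quartile scaling, 35 with library size scaling, 807 with no filter, 590 with DESeq2, 137 with limma-voom, 11 without the robust option, 47 with the covariate and 524 with 4 libraries. Leaving out 1 library gave 0 to 4 members and 6 to 656 genes. With treatment in mutants, 0 members passed in every alternative; 20 genes passed, 106 with no filter, 35 with DESeq2, and 10 to 83 without 1 library. In treated mutants against wild type, 3 members passed, 1 with the length and GC correction and 0 to 3 without 1 library; 491 genes passed, 871 at 0.10, 254 with library size scaling, 962 with no filter, 793 with DESeq2 and 6 to 637 without 1 library. The cause was not tested.

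With replicate number as a block, mutant vehicle against wild type had 1 member passing, also with the length and GC correction added, and Grin2b was at -0.73 (edgeR adjusted p = 0.0195). Grin3a lost its call (0.0544). Whether the numbers pair the libraries is not known from the sources used here. The correlation of same-numbered deviations was -0.083, -0.081 and 0.14. This shows little common shift but, with a single difference per group, cannot exclude pairing.

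Over 19 alternatives Grin2b, Grin2a, Grin1 and Grin3a stayed negative and Grin2c positive in both comparisons with wild type, with Grin3a called in 8 for mutant vehicle against wild type (edgeR, DESeq2 or limma adjusted p up to 0.534). Near-zero differences with treatment in mutants changed sign. Grin1 was 0.0193 with the oligodendrocyte covariate and -0.0582 to 0.0247 without 1 library, above 0 without mutant vehicle replicate 1 or treated replicate 1. Grin2c was 0.0639 with the covariate and -0.152 to 0.106 without 1 library, above 0 without mutant vehicle replicate 2 or treated replicate 1. The log2 ratio of Grin2b to Grin2a differed by -0.0524 to 0.0133 with treatment, and against wild type by -0.428 to -0.179 in mutant vehicle and -0.447 to -0.199 in treated libraries. The Grin2b share was 33.4%, 28.4% and 27.0% by longest transcript and 55.7%, 50.2% and 48.7% by coding length in the 3 groups, and 42.2% to 46.5%, 37.8% to 38.9% and 36.7% to 36.9% without 1 library.

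Groups of 2 libraries limit every interval here, counts of Grin3b were too few to test, and where a group keeps 1 library that library is assumed to vary like the others.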
